A study of Mus musculus with 54 samples.

Results

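Transcripts of 10 genes tied to the mesenchymal cell state were followed through a series of mouse 4T1 mammary carcinoma clones and specimens. They were Vim, Fn1, Cdh2, Cdh11, Sparc, Lox, Thy1, Axl, Tnc and Fbn1, chosen by name as 10 of the 23481 genes of the expression table. RNA-seq covered 54 libraries, namely 2 libraries lettered A and B for each of 23 clones and 4 specimens. Every clone was grown from a single sorted cell of 4T1, a line from a mouse mammary tumor, so each stands for 1 cell's descendants in culture. The labels count clones E and T as intravasating, that is, able to enter blood vessels when tested in a pool, and the other 21 clones as non-intravasating. The specimens were 2 orthotopic tumors, meaning tumors in the mammary gland (named Tumor_1 and Tumor_2), plus a pair of lung metastases named Lung_1 and Lung_2. Treatments, mouse strain, age and time after injection are not given in the labels, nor is whether tumor cells were separated from mouse tissue. The labels also do not say whether libraries A and B came from separate cultures, so p-values that rest on libraries may reflect technical spread alone.

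Epithelial cells that pass toward a mesenchymal state, as in wound healing and in some carcinomas, exchange keratin filaments and E-cadherin for vimentin filaments and other cadherins, and they secrete a fibrous matrix. Fibronectin, fibrillin and tenascin are laid down outside the cell, SPARC binds collagen, and lysyl oxidase cross-links it. Fibroblasts of connective tissue make most of these products as well. The genes did not form 1 expressed set in the clones: Vim, Fn1, Sparc and Axl were abundant, Tnc was intermediate, Cdh11 and Fbn1 were low, and Cdh2, Lox and Thy1 were at or near 0 reads. The same clones carried the epithelial genes Epcam (median 2446 normalized counts), Cdh1 (8889), Krt8 (9001) and Krt18 (12688).

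Depth per library was 8849257 to 31609870 reads for clones, 12183058 to 17369960 for tumors and 16327693 to 20368740 for lung metastases. The A libraries of the lung metastases had a read in 20278 and 19868 genes, against 16604 and 16972 in their B libraries, and so stood apart for low genes. A normalized count below is a read count corrected for depth, given as the mean of libraries A and B. Differences are on the deposited log2 scale, on which a gene without a read sits at 5.03 and low genes are compressed.

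Per kilobase of exon, the median over clones was 11059 normalized counts for Vim, 3130 for Axl, 2577 for Fn1 and 1621 for Sparc. Tnc followed with 42.4 per kilobase, Cdh11 with 1.80 and Fbn1 with 1.39. In other words, the intermediate filament gene and 3 genes of the cell surface and matrix lay far above the remaining matrix genes. The plot of levels shows this order and the distance of the specimens from the clones.

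**Figure D1:**
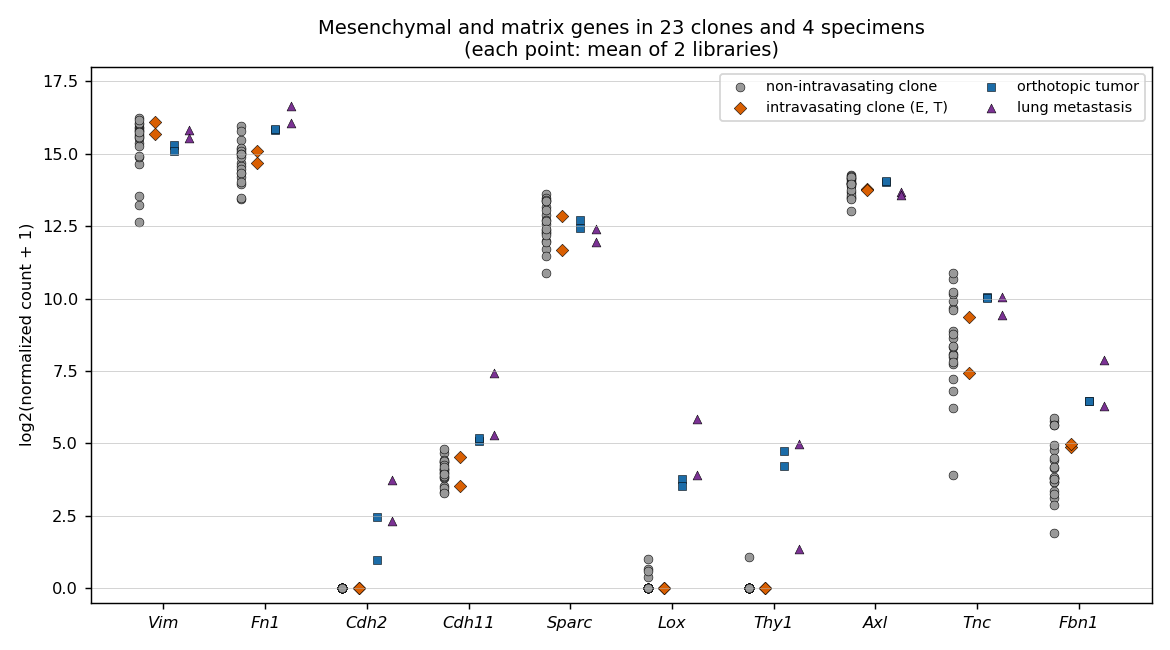
Level of the 10 genes as log2(normalized count + 1), with 1 point per clone or specimen (mean of 2 libraries). Grey circles are the 21 non-intravasating clones, orange diamonds clones E and T, blue squares tumors and purple triangles lung metastases. Cdh11, Fbn1, Lox, Thy1 and Cdh2 lie above all 23 clones in each of the 4 specimens.

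Tnc had the widest range of clone levels and Axl the most even of the 4 abundant members, as the clone values show further on. The stretches just before the transcription starts of these 2 genes are shown because only they had a usable window free of exons of the same gene. Each is the 250 bases before the start, 5′ to 3′ on the gene's strand, from RefSeq on build GRCm38.p6. The bases just after the start were found in a GENCODE transcript of the gene for Tnc but not for Axl. The promoter table has an entry for 5 of the 10 genes, and for the other 3 of these, Vim, Sparc and Fbn1, the window overlaps exons of the same gene in GENCODE and is not shown. Capitals mark a match on either strand to TATAAA, the TATA box, in Tnc and to GGAATG, the TEAD site, in Axl.
Tnc, chr4:64047016-64047265, minus strand: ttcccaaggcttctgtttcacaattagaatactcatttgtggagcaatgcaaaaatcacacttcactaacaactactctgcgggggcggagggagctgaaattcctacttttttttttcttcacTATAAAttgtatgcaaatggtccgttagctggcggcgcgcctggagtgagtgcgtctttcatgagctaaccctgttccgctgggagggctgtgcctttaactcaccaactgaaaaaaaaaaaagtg
Axl, chr7:25788734-25788983, minus strand: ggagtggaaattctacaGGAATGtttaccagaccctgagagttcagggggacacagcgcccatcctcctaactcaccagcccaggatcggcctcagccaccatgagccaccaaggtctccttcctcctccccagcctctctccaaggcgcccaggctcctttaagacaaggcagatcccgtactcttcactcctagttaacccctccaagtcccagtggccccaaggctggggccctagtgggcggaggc
Both strands were also searched for the AP-1 site TGANTCA and the E-box CAGGTG, and neither set of letters was found in these 2 windows. The TATA match began 126 bases before the start in Tnc, and the TEAD match 233 bases before the start of Axl. The promoter table has another start inside Tnc, and the TATA match began 205 bases before that one. Of 32544 promoters of the same length, 12.3% held TATAAA, 12.6% the TEAD letters, 17.3% the E-box and 6.73% the AP-1 letters. GC content was 44.8% for Tnc and 60% for Axl, against a median of 52.4%. A match is a description of these letters only.

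The first question was how far sister clones of 1 line differ in these genes. All 7 members with enough reads to be tested in the clones, at least 10 normalized counts in at least 2 clone libraries, differed among the 23 clones by limma's F-test, but so did 95.1% of all 13637 tested genes. The size of the spread told the members apart better. Between clones the SD was 1.23 for Tnc, 0.96 for Vim, 0.70 for Sparc, 0.65 for Fn1, 0.38 for Fbn1, 0.31 for Axl and 0.14 for Cdh11 on the log2 scale, with a median over genes of 0.29. Between libraries of a clone it was 0.12 for Tnc, 0.17 for Vim, 0.14 for Sparc, Fn1 and Fbn1, 0.09 for Axl and 0.12 for Cdh11. The log2 scale compresses low genes, so this order of members also depends on their level. On normalized counts the coefficient of variation over clones was 91.2% for Tnc, 72.1% for Fbn1, 45.5% for Sparc and 43.8% for Fn1. It was 42.6% for Vim, 29.9% for Cdh11 and 19.8% for Axl. Fbn1 thus ranked above Vim, Sparc and Fn1 on counts, and Cdh11 above Axl, although Fbn1 and Cdh11 rest on few reads. Of the 253 pairs of clones, 223 differed in Tnc, 189 in Sparc, 177 in Fn1, 154 in Vim, 133 in Fbn1, 129 in Axl and 26 in Cdh11 by limma contrasts adjusted within each pair. The median gene differed in 99 pairs, and 39.8% of all gene by pair tests were called.

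Vim encodes vimentin, the intermediate filament protein of mesenchymal cells, and spans 13573927 to 13582826 of chromosome 2 (plus strand) (mm10, GENCODE M21). It ran from 6443 normalized counts in clone A through a median of 52455 to 77124 in clone D, a 12.0-fold range. The order was not even: clones A, J and L stood at 6443, 9566 and 11969 counts, and the next, clone P, at 25734. The step from L to P was 1.10 ± 0.17 (SE; limma adjusted p = 1.24e-05) and that from A to J 0.56 ± 0.17 (limma adjusted p = 0.00686), and these were the 2 steps of 22 between neighbours in the order that passed. From P upward no step between neighbours passed, although the ends of that stretch differed. Clone A was below all 22 other clones and clone D above 16 of them in the pairwise contrasts.

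Axl (chromosome 7, 25757273 to 25788705, minus strand) encodes a receptor tyrosine kinase of the TAM family that binds the ligand Gas6. Its clone means were the most even of the 4 abundant members, from 8228 counts in clone A through a median of 15755 to 19824 in clone G, a coefficient of variation of 19.8%. Clone A again stood lowest, and its step to the next clone, U at 11038 counts, was 0.42 ± 0.11 (SE; limma adjusted p = 0.00173), the 1 step of 22 that passed. Gas6 itself had at most 1.14 counts in a clone. Of the other TAM genes, Tyro3 ran from 129 to 423 counts, Mertk from 3.02 to 288 and the ligand Pros1 from 1.72 to 387.

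The matrix genes were ordered in other ways. Fn1 (chromosome 1, 71585520 to 71653200, minus strand) encodes fibronectin, a glycoprotein that links integrins to collagen. It was lowest in clone H (10976 counts), with a median of 30111, and highest in clone A (63122), the clone with the least Vim and Axl. Clone A was above 21 of the 22 other clones in Fn1, and M (above 20) and L (above 17) came next. Clone H was below 21 others, as was clone U, with 11328 counts. The step from U to G was the 1 of 22 that passed. An antisense neighbour, Apol7d, shares 292 exon bases with Fn1 (2.50%) and had a median of 5.18 counts over the clones.

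Sparc (chromosome 11, 55394500 to 55423183, minus strand) encodes a secreted glycoprotein that binds collagen and calcium. It ran from 1892 counts in clone U through a median of 6142 to 12478 in clone M. Only the lowest step, from U to L (2851 counts), separated neighbours, at 0.57 ± 0.14 (SE; limma adjusted p = 0.00152). Fbn1 (chromosome 2, 125300594 to 125507993, minus strand) encodes fibrillin-1, the backbone of extracellular microfibrils. It had few reads, between 2 and 98 per clone library. Its level ran from 2.72 counts in clone A through a median of 16.9 to 57.5 in clone O, a 21.1-fold range. No neighbours in its order differed past the threshold. The antisense gene Gm9913 covers 20.1% of the exon bases of Fbn1, and the strand setting of the counting is not given in the sources used here.

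Tnc encodes tenascin-C, a large matrix protein of embryonic tissue, wounds and tumor stroma, and spans 63959785 to 64047015 of chromosome 4 (minus strand). It had the widest range, 132-fold, from 14.2 counts in clone S through a median of 329 to 1874 in clone L. Clone A was second with 1634 and clone V next with 1195. In its order 5 of 22 neighbouring steps passed: S to W (73.3 counts), W to G (110 counts), G to O (148 counts), H to T (476 to 653 counts) and V to A. Clone S therefore stood alone at the bottom, by 1.06 ± 0.12 (SE; limma adjusted p = 1.78e-08). Cdh11 (chromosome 8, 102632095 to 102785642, minus strand) encodes OB-cadherin, a cadherin of mesenchymal cells. It lay between 8.81 counts in clone W and 26.7 in clone J with a median of 16.0. The SD of its clone means was 0.14, and that of single libraries within clones 0.12. These are unlike quantities, as a mean of 2 libraries varies less than 1 library. It passed limma's F-test among clones (adjusted p = 0.0184).

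**Figure D2:**
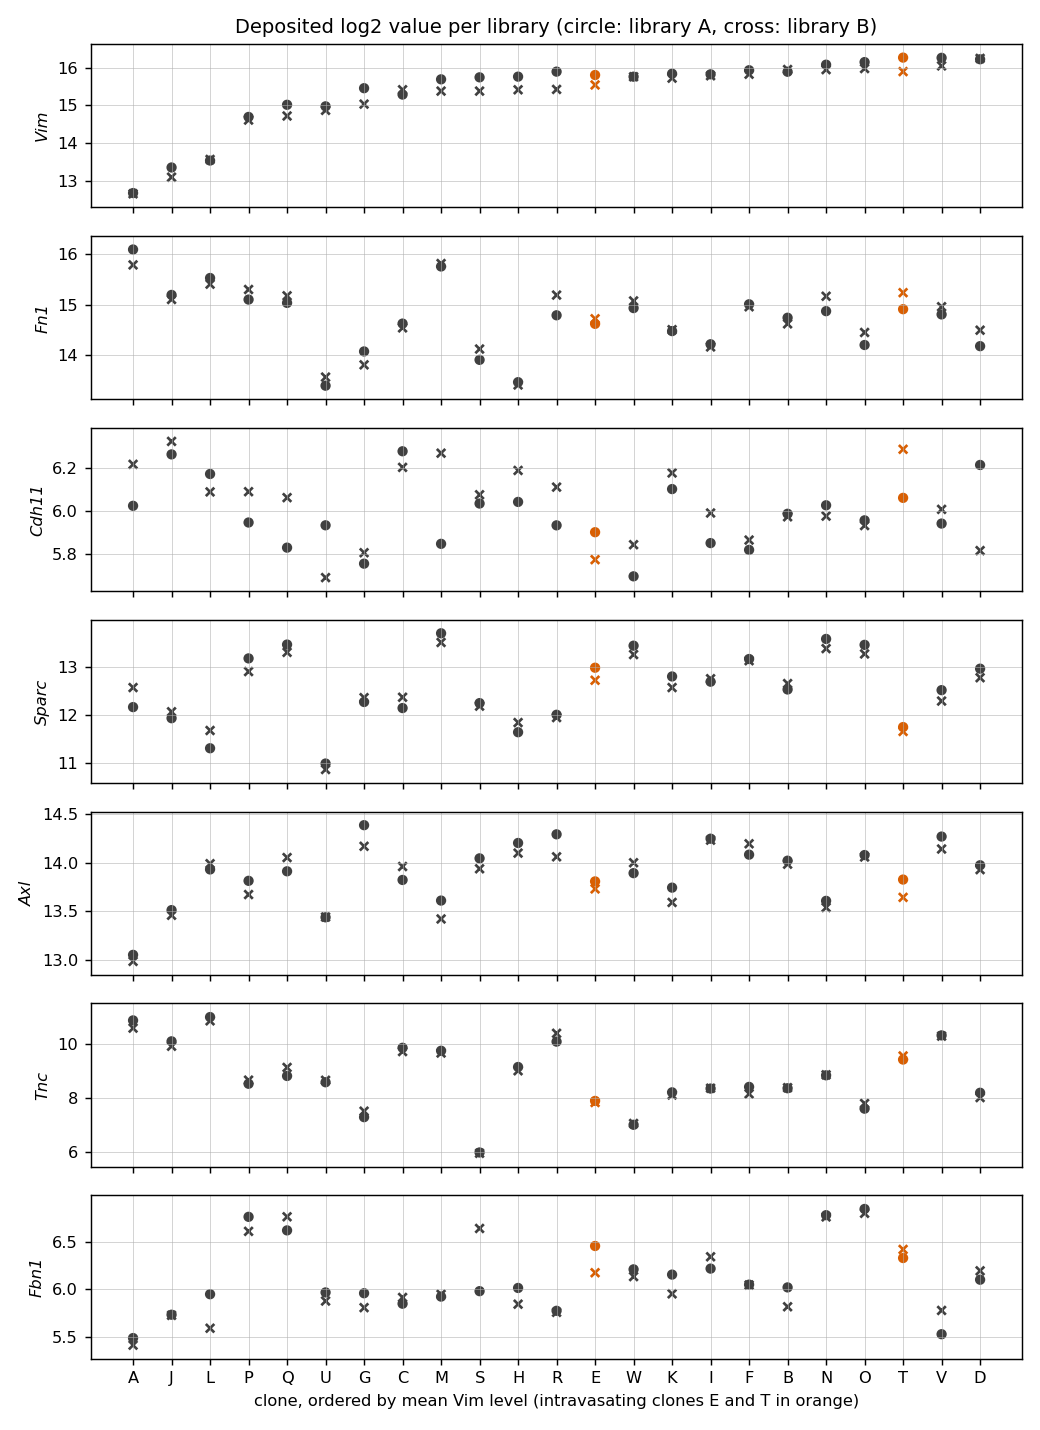
Deposited log2 value in libraries A (circles) and B (crosses) of the 23 clones for the 7 tested members, with clones on the horizontal axis in the order of mean Vim and clones E and T in orange. Clones A, J and L at the left are low in Vim and among the high clones in Tnc, while Cdh11 shows library scatter nearly as wide as the scatter of clones.

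Read across the panels of clone values, the members did not rank the clones in 1 order. Clone A combined the lowest Vim, Axl and Fbn1 with the highest Fn1 and the second highest Tnc. Over the 23 clone means Vim and Axl had a Pearson r of 0.57 (Spearman 0.35), which was 0.33 without clone A. Vim and Tnc had r of −0.50 (−0.39 without clone A), Vim and Fn1 −0.42 (−0.24 without clone A), and Fn1 and Axl −0.44. On the positive side were Fn1 with Tnc (0.55), Cdh11 with Tnc (0.55) and Sparc with Fbn1 (0.54), and Tnc with Fbn1 was at −0.51. These are descriptions over 23 points that share culture conditions, library preparation and 1 normalization, with no test.

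Tnc and Vim also sat on opposite sides of the epithelial genes Epcam and Cdh1, though not of every keratin. Tnc had r of 0.85 with Epcam, an epithelial adhesion molecule, and 0.77 with Cdh1, which encodes E-cadherin, and −0.72 with Zeb2, a repressor of Cdh1. Vim had r of 0.82 with Zeb2 and 0.88 with S100a4, a calcium-binding protein made by fibroblasts and metastatic cells, and −0.51 with Epcam and −0.50 with Cdh1. The rank correlation of Vim was lower, 0.66 with S100a4 and 0.58 with Zeb2. Without clone A the r of Vim with S100a4 was 0.85, and without clone S the r of Tnc with Epcam was 0.81. Krt7, Krt14 and Krt19 also went opposite ways (0.65, 0.65 and 0.72 with Tnc, −0.47, −0.61 and −0.56 with Vim). Vim did not oppose Krt8 and Krt18, with r of 0.10 and −0.05, where Tnc had 0.31 and 0.40.

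**Figure D3:**
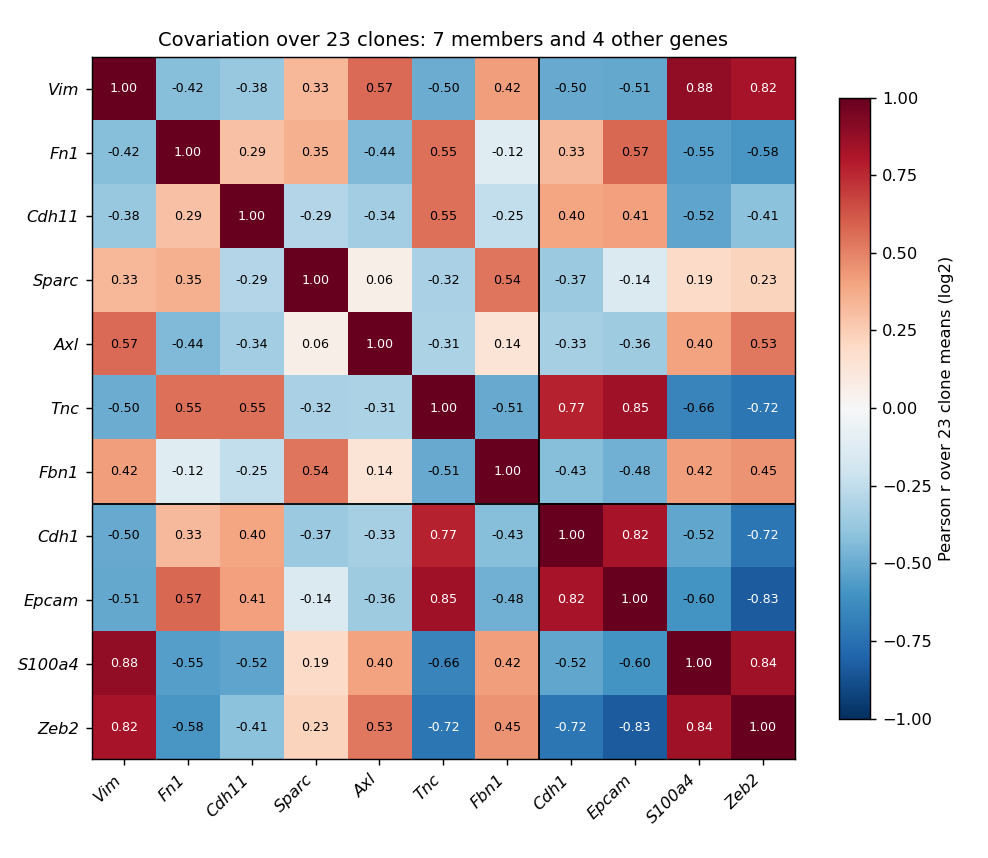
Pearson r over the 23 clone means on the deposited log2 scale among the 7 tested members (above and left of the black lines) and 4 other genes. Colors run from −1 (blue) to 1 (red). Tnc is at 0.85 with Epcam and −0.72 with Zeb2, and Vim at −0.51 and 0.82.

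For each member, the 3 genes with the most similar and the 1 with the most opposed clone profile were taken by Pearson r among the tested genes. For Vim they were S100a4 (0.88), 5730409E04Rik (0.84) and Rgs14 (0.84), with Pnpla3 opposed (−0.91). Axl was closest to Cyfip1 (0.85), Oat (0.85) and Dmwd (0.81) and opposed to Casz1 (−0.81). Fn1 was closest to Slc40a1, the iron exporter ferroportin (0.82), Mcam, an adhesion molecule (0.81), and Nuak2 (0.79), and opposed to Zfyve20 (−0.84). Sparc was closest to Kif7 (0.81), Rccd1 (0.77) and Masp1 (0.77) and opposed to Dusp11 (−0.74). Tnc was closest to Inhba, which encodes the activin A subunit (0.85), Epcam (0.85) and Tnnt2 (0.85), and opposed to Gm16861 (−0.82). Fbn1 was closest to Map9 (0.77), B230217C12Rik (0.77) and Ccdc80 (0.75), opposed to Pcyt1b (−0.79), and Cdh11 to Dnah10 (0.75), 6820431F20Rik (0.74) and Tnks (0.73), opposed to Akt2 (−0.77).

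Partner genes from lists of related function varied among the clones to different degrees. The median SD between clones was 0.65 for the 7 members and 0.29 for all tested genes. It was 0.89 over 12 tested genes of the matricellular list, secreted proteins that bind matrix and cells, and 0.79 over 3 genes of the TAM list. It was lower than among the members for intermediate filaments (0.49, 9 genes), fibronectin receptors (0.46, 8 genes), transcription factors of the epithelial to mesenchymal transition (0.46, 7 genes) and cadherins and catenins (0.36, 6 genes). Of the matricellular genes Thbs2 had r of −0.80 with Tnc, and Postn (−0.79) and Ctgf (−0.70) ran against Vim. The rank correlations were −0.78, −0.54 and −0.59. Thbs2 and Postn were near 0 in many clones, with medians of 1.80 and 3.49 counts. In the microfibril and elastic fibre list the median SD was 0.55 over 12 tested genes, with Fbln2 at r 0.77 with Tnc and Loxl3, a relative of Lox, at 0.78 with Vim. The fibrillin partners Fbn2 and Eln, which encodes elastin, had at most 1.40 and 1.61 counts in any clone.

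The 3 remaining members were all but silent in culture. Cdh2, which encodes N-cadherin, spans 16588877 to 16809246 of chromosome 18 (minus strand) and had 0 reads in all 46 clone libraries. A count of 0 over these libraries allows a level of up to 0.0647 normalized counts (3 reads over the group, counting error only). Lox (chromosome 18, 52516067 to 52529867, minus strand) encodes lysyl oxidase and had 5 reads in 4 libraries of 4 clones. Thy1 (chromosome 9, 44043384 to 44048579, plus strand) encodes a surface glycoprotein of T cells and fibroblasts and had 2 reads, both in 1 library of clone A. None of these genes could be tested among clones. Cdh1 ranged from 217 to 24203 counts, so clones at both ends of the E-cadherin range had no N-cadherin read.

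The study's own question was what sets intravasating clones apart. With the clone as the replicate, 0 of the 7 tested members differed between clones E and T (n = 2) and the other clones (n = 21). By limma 0% of genes were called higher and 0% lower, and an unadjusted p under 0.05 was reached by 109 genes and 0 members. Differences of E and T from the others were 0.62 ± 0.67 for Vim, 0.26 ± 0.27 for Fbn1, 0.16 ± 0.46 for Fn1, −0.00 ± 0.12 for Cdh11, −0.13 ± 0.23 for Axl, −0.14 ± 0.86 for Tnc and −0.29 ± 0.49 for Sparc (SE). E and T lay inside the range of the others for each of these genes: counted from the highest of 23, E and T ranked 11 and 3 in Vim, 9 and 21 in Sparc, and 19 and 8 in Tnc. Differences of this size were not detectable with 2 clones at this spread.

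The labels describe a second rule, by which a gene counts when both E and T exceed most other clones, applied here as 11 or more of 21 by limma contrasts. It called 2.14% of genes higher and 1.61% lower, and 0 of the 7 members in either direction. Fbn1 was higher in E than in 10 and in T than in 11 of the others, and Vim higher than in 7 and 11. Fn1 was higher than in 5 and 10 but in E also lower than in 6, and Axl was lower than in 7 for each of E and T. Sparc (10 in E and 1 in T) and Tnc (3 in E and 14 in T) went different ways in the 2 clones.

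Between clones E and T, 3 of the 7 members differed, 1 higher in E and 2 higher in T, where limma called 15.3% of genes higher in E and 13.4% lower. Tnc had 171 ± 6.50 counts in E and 653 ± 46.7 in T (SD, n = 2 libraries), a log2 difference of −1.63 ± 0.12 (SE; limma adjusted p = 4.37e-12). Sparc was the reverse, with 7397 ± 952 counts in E and 3284 ± 150.0 in T, a difference of 1.15 ± 0.14 (limma adjusted p = 1.32e-07). Fn1 had 25959 ± 1287 and 34580 ± 5553 counts, a difference of −0.40 ± 0.15 (limma adjusted p = 0.0391). Its call was lost on the scale of log2(normalized count + 1) (adjusted p = 0.0509), with no filter (0.0760), and without library A of E (0.185), B of E (0.0771) or B of T (0.361).

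Vim had 52477 ± 6748 counts in E and 69940 ± 12644 in T, a difference of −0.41 ± 0.17 that did not pass (limma adjusted p = 0.0689). With the library letter as a replicate block Vim did pass, as given in the closing section. Axl, with 13886 ± 523 and 13587 ± 1223 counts, differed by 0.03 ± 0.11, Fbn1, with 28.1 ± 9.21 and 30.6 ± 3.13, by −0.06 ± 0.15, and Cdh11, with 10.5 ± 2.42 and 21.9 ± 6.40, by −0.34 ± 0.13 (limma adjusted p = 0.0572). Vim (adjusted p = 0.0468) and Cdh11 (0.0497) passed when libraries were centred on the median gene, Vim also without library B of T (0.0328), and Cdh11 without the variance trend (0.0464).

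Related genes separated E and T in several lists. In the microfibril and elastic fibre list 12 genes were tested, of which 6 were higher in E and 2 in T, with Loxl3 at 2722 and 690 counts (1.89 ± 0.11), Fbln1 at 130 and 0.457 (1.64 ± 0.42) and Ltbp3, a carrier of latent TGF-beta, at 8081 and 2646 (1.58 ± 0.13). Among 8 fibronectin receptor and assembly genes E had the higher level in 4 and T in 1, including Itgb1 (18767 and 12727 counts) and Tns1 (50.9 and 10.2). The matricellular list had 1 gene higher in E and 3 in T of 12, among them Wisp1 with 97.4 and 586 counts (−2.07 ± 0.13). Cdh1 was higher in T (3848 and 8407 counts), as was Zeb1, a repressor of Cdh1 (21.9 and 60.1 counts). E-cadherin, Zeb1 and tenascin-C transcripts were thus all higher in T.

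The specimens were compared with the clones on 1 value per clone or specimen, and both comparisons share the 23 clones. The labels do not say which clones gave rise to the specimens. In bulk RNA, fewer cells of a type and less RNA per cell cannot be told apart. Cdh2, Lox and Thy1 enter these tests only through their reads in the specimens, so they had to differ, and their calls are given as a description.

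Fbn1 was higher in the tumors than in the clones. It had 87.8 counts in Tumor_1 and 88.1 in Tumor_2, above all 23 clones, whose highest value was 57.5, and the difference was 1.08 ± 0.28 (SE; limma adjusted p = 0.0158). That call was lost on the scale of log2(normalized count + 1) (adjusted p = 0.0523), without Tumor_1 (0.158) and without Tumor_2 (0.404). Cdh11, with 32.6 and 35.1 counts, was also above all clones (at most 26.7), yet its difference of 0.43 ± 0.17 did not pass (limma adjusted p = 0.142). It passed without Lung_1 (0.0202) or Lung_2 (0.0231), which share the estimate of spread. Fn1, with 58139 and 58883 counts, exceeded 22 of 23 clones (1.11 ± 0.44, limma adjusted p = 0.127).

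Of the 10 members, 4 were called higher in the tumors and 0 lower, where 5.71% and 1.75% of 14235 genes were, and 1 of the 4, Fbn1, was testable in the clones. Apart from Fbn1 they were Thy1 (17.6 and 26.0 counts), Lox (12.6 and 10.5) and Cdh2 (4.51 and 0.971). The Cdh2 value rests on 12 reads, 10 of them in library B of Tumor_1 with 0 in its library A, and without Tumor_1 its call was lost (adjusted p = 0.306). Vim (40103 and 35167 counts), Sparc (6743 and 5513), Axl (16599 and 16853) and Tnc (1067 and 1031) lay inside the clone range and differed by −0.13 ± 0.64, 0.00 ± 0.47, 0.17 ± 0.22 and 1.32 ± 0.81, none past the threshold.

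In the lung metastases 6 of the 10 members were called higher and 0 lower, where 12.4% and 6.34% of genes were, and 3 of the 6 were testable in the clones. Fn1 had 67860 counts in Lung_1 and 102458 in Lung_2, both above the highest clone at 63122, a difference of 1.61 ± 0.44 (SE; limma adjusted p = 0.00994). Cdh11 had 38.1 and 174 counts (1.18 ± 0.17, limma adjusted p = 1.22e-05). Fbn1 had 77.4 and 232 counts (1.53 ± 0.28, limma adjusted p = 0.000248). All 3 exceeded every clone in both specimens. Without Lung_2 the differences were 1.31 for Fn1, 0.51 for Cdh11 and 0.97 for Fbn1, and all 3 calls were lost (adjusted p = 0.277, 0.0718 and 0.153). Without Lung_1 the difference of Fn1 was 1.92, and its call was lost as well (adjusted p = 0.0622).

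Lox, Thy1 and Cdh2 were present in the lung metastases at low levels. Lox had 14.2 and 56.6 counts, Thy1 1.56 and 30.6, and Cdh2 4.02 and 12.4. Against the pooled clone reads Lox was 524.8-fold higher in Lung_2 (95% counting interval 219 to 1642) and 136-fold higher in Lung_1 (53.1 to 443). Thy1 was 709-fold higher in Lung_2 (189 to 5961) and 37.7-fold higher in Lung_1 (5.40 to 417), where it had 4 reads. Cdh2 was 192-fold higher in Lung_2, 62.8-fold in Lung_1 and 71.5-fold in Tumor_1 than the floor of 3 reads over the clones. Those values rest on 30, 10 and 10 reads, and with the counting error of these reads the 95% lower limits are 146-fold, 42.3-fold and 48.1-fold. These intervals and floors cover counting error only.

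Vim (57601 and 47737 counts), Sparc (3975 and 5416), Axl (13000 and 12132) and Tnc (688 and 1072) stayed inside the range of the clones in the lung metastases. Their differences of 0.36 ± 0.64, −0.36 ± 0.47, −0.25 ± 0.22 and 1.05 ± 0.81 did not pass.

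**Figure D4:**
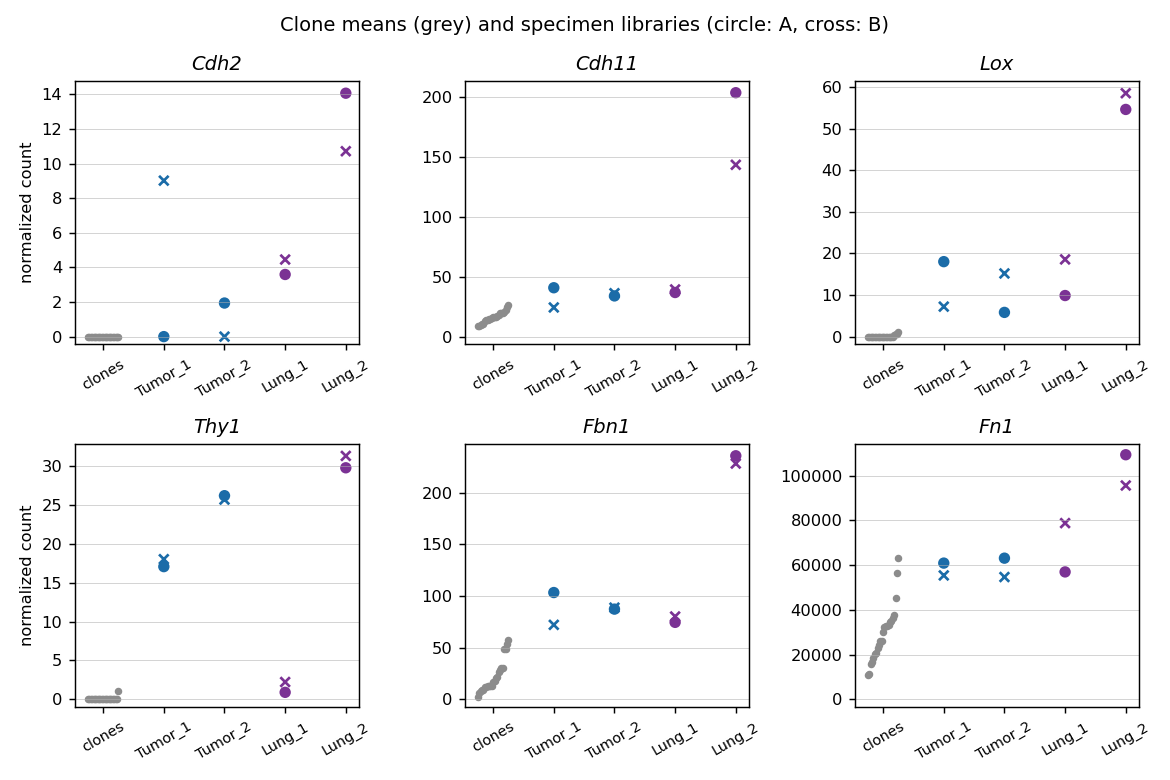
Normalized counts of 6 members, with the 23 clone means in grey (sorted, left) and each specimen library as a circle (A) or cross (B), tumors in blue and lung metastases in purple. Each vertical axis has its own scale. Lung_2 is highest in all 6 genes, with Cdh11 at 204 and 143 counts in its libraries against 36.8 and 39.4 in Lung_1.

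Markers of other cell types moved in the same samples as these members. The summed fibroblast list of 9 markers ran from 124 to 1783 counts over the clones and stood at 792 and 692 in the tumors, 1793 in Lung_1 and 4745 in Lung_2. Much of it is Pdgfra, which the clones make (117 to 1756 counts). Without Pdgfra, a sum chosen after its value was seen, the clones had 1.11 to 94.8 counts, the tumors 224 and 180.5, Lung_1 301 and Lung_2 1351. Col1a1, the main fibrillar collagen chain of fibroblasts, had at most 11.5 counts in a clone, 53.7 and 52.4 in the tumors, 45.5 in Lung_1 and 337 in Lung_2. In both kinds of specimen 5 of the 9 markers exceeded every clone, and Lum was at 0 in Lung_1. The 4 leukocyte markers summed to 5.14 to 26.5 counts in the clones, 93.2 and 81.7 in the tumors, 119 in Lung_1 and 310 in Lung_2.

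The specimen with most Fn1, Cdh2, Cdh11, Lox, Thy1 and Fbn1, Lung_2, was thus also the one with the highest fibroblast and leukocyte sums. The part of other cells in these differences was not tested. Thy1 is also made by T cells, whose 5 markers summed to 16.3 to 59.5 counts in the clones, 38.0 and 32.1 in the tumors, 65.8 in Lung_1 and 60.3 in Lung_2. Most of that is Lck, with 15.8 to 59.2 counts in the clones, 28.7 and 33.8 in the tumors and 57.2 and 57.4 in the lung metastases. The other 4, Cd3e, Cd3d, Cd3g and Cd2, had at most 3.70 counts in any specimen, with Cd3d at 2.48 and 2.69 in the lung metastases against at most 1.07 in a clone, and Lung_2 had 0 of Cd3e and Cd3g beside 30.6 of Thy1. The pericyte and smooth muscle list summed to 42.6 to 112 counts in the clones, 134 to 191 in the tumors and 139 to 252 in the lung metastases, with its marker Rgs5 at 0 in both tumors. For endothelium the sums were 67.7 to 211, 139 to 140 and 183 to 188 counts, with Egfl7 alone at 61.4 to 129 in the clones. Of the 7 endothelial markers, 2 exceeded every clone in both tumors and 5 in both lung metastases. Macrophage sums were 186 to 2249, 716 to 756 and 541 to 992, with Cd14 alone at 77.2 to 1699 in the clones. Of the 6 macrophage markers, 3 exceeded every clone in both tumors and 3 in both lung metastases. Neutrophil sums were 0 to 905, 15.7 to 15.8 and 40.9 to 48.9, and mesothelial sums, mostly Msln, 1062 to 6506, 5016 to 5772 and 1307 to 1543. The mesothelial marker Wt1 had at most 0.46 counts in a clone, 0 in both tumors and 10.4 and 20.7 in the lung metastases. Lung epithelium markers summed to 14.8 to 60.2 in the clones, 20.3 to 41.8 in the tumors and 28.4 to 34.7 in the lung metastases, and of the erythroid markers the globin genes Hbb-b1 and Hba-a1 were at 0 throughout while Alas2 had 30.5 to 83.4 counts in the clones, 86.9 and 113 in the tumors and 78.3 and 79.3 in the lung metastases. The tumor epithelium list of 9 genes summed to 14342 to 85692 in the clones, 26190 to 28830 in the tumors, 22270 in Lung_1 and 15664 in Lung_2.

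Between lung metastases and tumors 0 of the 10 members passed, where limma called 16.6% of 13702 genes higher and 14.8% lower in the lung metastases. An unadjusted p under 0.05 was reached by 3 members. Axl came closest, with 13000 and 12132 counts in the metastases against 16599 and 16853 in the tumors (−0.42 ± 0.14 SE, limma adjusted p = 0.0502). It passed on the scale of log2(normalized count + 1) (adjusted p = 0.0497), with centred libraries (0.0443) and without the variance trend (0.0250). Vim, with 57601 and 47737 against 40103 and 35167 counts, differed by 0.49 ± 0.20 (limma adjusted p = 0.0925) and passed without the trend (0.0289). Of the others, Fn1 differed by 0.50 ± 0.25, Cdh11 by 0.75 ± 0.34, Lox by 0.53 ± 0.24 and Sparc by −0.36 ± 0.18. Tnc differed by −0.27 ± 0.18, Thy1 by −0.31 ± 0.28, Fbn1 by 0.45 ± 0.29 and Cdh2 by 0.41 ± 0.16 (SE).

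The 2 lung metastases differed from each other more than the 2 tumors did in Cdh11, Lox, Fbn1 and Thy1, and less in Cdh2. Lung_2 was 4.56-fold above Lung_1 in Cdh11, 3.98-fold in Lox, 3.00-fold in Fbn1, 3.08-fold in Cdh2 and 19.6-fold in Thy1, on 1 specimen each and with no test. The tumors were within 1.08-fold for Cdh11, 1.20-fold for Lox, 1.00-fold for Fbn1 and 1.48-fold for Thy1, while Cdh2 differed 4.65-fold between them on 12 reads. Leaving out 1 lung specimen accordingly changed the count of members called from 0 to 4 (Cdh2, Cdh11, Lox and Fbn1 higher, without Lung_1) or 3 (Sparc, Thy1 and Tnc lower, without Lung_2), each resting on a single metastasis.

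**Figure D5:**
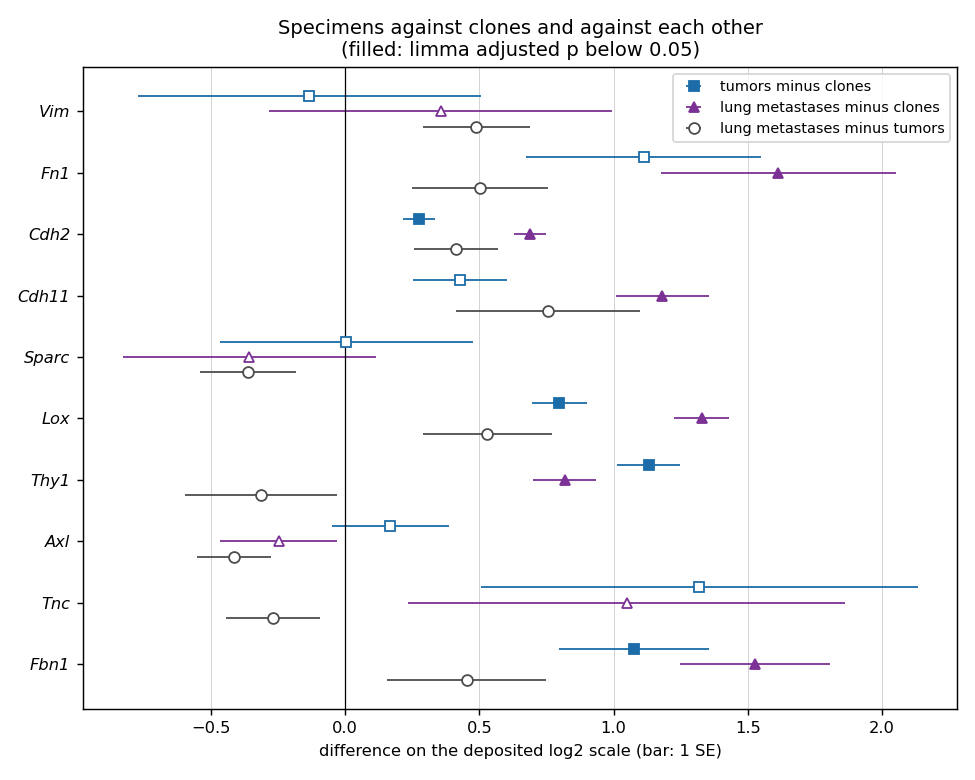
Differences of the 10 members on the deposited log2 scale with 1 SE, for tumors minus clones (blue squares), lung metastases minus clones (purple triangles) and lung metastases minus tumors (grey circles). Filled symbols passed limma's adjusted threshold of 0.05. Fbn1, Lox, Thy1 and Cdh2 are filled in both comparisons with clones, Fn1 and Cdh11 for lung metastases, and no member for lung against tumors.

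Genes that act with the members moved in part with them. The counts below stand beside 5.71% of all genes called higher and 1.75% lower in tumors, and 12.4% and 6.34% in lung metastases. Itga5, the integrin chain that pairs with Itgb1 to bind fibronectin, was higher in tumors (1000 counts on average against 550 in the clones; 0.84 ± 0.25, limma adjusted p = 0.0350) and in lung metastases (947; 0.75 ± 0.25, limma adjusted p = 0.0316). Itgb1 itself was lower in lung metastases (8960 against 24900; −1.39 ± 0.38, limma adjusted p = 0.0107). Of the fibronectin receptor and assembly list 1 of 9 was called higher in tumors and 0 lower, and 2 higher and 1 lower in lung metastases. Of these 9 genes 8 were also tested among the clones. The other, Itga4, had at most 1.61 counts in a clone and 15.2 and 26.0 in the lung metastases. It entered only through the specimens, so its result is a description. The microfibril and elastic fibre list had 3 of 13 higher and 0 lower in each, among them Loxl2 in lung metastases (56.6 against 9.72 counts). Of its 13 tested genes 12 were also tested among the clones, and the remaining gene entered only through the specimens. In the matricellular list 0 of 12 were called in tumors, and 4 were higher in lung metastases, led by Tnxb (228 against 26.9 counts), Tgfbi (174.5 against 21.6) and Thbs2 (74.9 against 9.59).

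Among transcription factors of the epithelial to mesenchymal transition, 2 of 7 were higher in tumors and 3 in lung metastases, with 0 lower. The shares over all genes were 5.71% and 12.4% higher. Zeb1 led both, at 63.5 and 89.4 counts in the tumors (1.26 ± 0.25, limma adjusted p = 0.00162) and 76.1 and 108 in the metastases (1.42 ± 0.25, limma adjusted p = 0.000154), against at most 60.1 in a clone. Cdh1 was lower in lung metastases than in tumors, 2279 and 1341 against 9034 and 7914 counts (−2.22 ± 0.21, limma adjusted p = 0.000260), and Krt7 was lower too (661 against 3649; −2.35 ± 0.14). In that comparison 14.8% of all genes were lower and 16.6% higher. Of 9 intermediate filament genes 4 were lower and 0 higher in it, and Vim was not among those called. Krt8 and Krt18 were not lower. Krt8 had 7542 and 5762 counts in the metastases against 5026 and 4678 in the tumors. Krt18 had 10947 and 7459 against 8021 and 7173. In the cadherin and catenin list 2 of 7 were lower and 0 higher, and of the 4 TAM genes 3 were higher and 1 lower, with Mertk at 125 against 35.0 counts (1.07 ± 0.14, limma adjusted p = 0.000912). Among these 4, Gas6 had 9.10 and 14.9 counts in the lung metastases against 3.23 and 1.56 in the tumors. It could be tested only through the lung metastases, so its result is a description. Over all tested genes the median difference was 0.05 for tumors and 0.06 for lung metastases against clones, and 0.43 and 1.05 over the 7 members that were also tested among the clones.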

How the data were processed

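Per the labels' protocols, 100 ng of column-purified, DNase-treated RNA was amplified with a NuGEN Ovation kit and sequenced in reads of 76 bases. Bowtie2, HTSeq and DESeq with build mm10 were used, per the submitters' processing notes. Versions and strand setting: not given in the sources used here. The authors deposited log2 values for 23481 genes in 54 libraries, which follow a variance-stabilising curve with 5.03 for no read. Inverting that curve and dividing by the value of 1 read gave whole reads, within 0.01, for 100% of values, and from these came normalized counts and depth. There were 0 columns without a sample. Since the deposited unit is log2, no count test was made.

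Genes with at least 10 normalized counts in at least 2 libraries of a comparison were tested with limma 3.58.1 in R 4.3.3 (variance trend, two-sided, Benjamini-Hochberg over all tested genes, threshold 0.05). The script was tested on simulated data. Clones among themselves were compared over 46 libraries, all other groups over 1 mean per clone or specimen. The rule for names took all 10 members, up to 3 called genes with at least 50 counts per partner list and comparison, and the 3 most alike and 1 most opposed gene per member. Members, partner lists and markers were chosen with earlier results of these data known. Positions are from GENCODE M21, and overlaps and lengths are unions of exons. Alternatives were the scale, filter, centring, trend, library letter as a block, single letters and each sample left out.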

Additional observations from a re-analysis of the deposited data

How the results depend on the processing

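The count of members that differed among clones stayed at 7, and that of both intravasation comparisons at 0, under every alternative run, with 9 members tested where no filter was used. Between E and T the count of 3 became 5 with libraries centred on the median gene and lay between 2 and 3 with a library left out. With the library letter as a replicate block it was 4, Vim being added (adjusted p = 0.0202). Over 253 pairs of clones the correlation of A minus B differences ran from −0.502 to 0.637 and was over 0.1 in 113, so the letters were not treated as pairing samples, although Vim was higher in A in 19 of 23 clones. In the comparisons on means of A and B such a block cancels. Tumors against clones gave 4, and 2 to 5 with a specimen left out, 2 without Tumor_1. Lung metastases against clones gave 6, and 2 to 6, 2 without Lung_2, where 9 members were tested. Lung metastases against tumors gave 0, but 1 on log2(normalized count + 1), 1 with centred libraries, 2 without the trend, and 0 to 4 with a specimen left out, where a lone specimen is assumed to vary like the others. No member changed direction while called. The cause of these shifts was not tested. Few reads limit Cdh2, Lox and Thy1, and 2 specimens of a kind limit every specimen comparison.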
